A study of Mus musculus with 6 samples.

Results

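Transcripts of the inhibitors of cyclin-dependent kinases (CDKs) were compared between irradiated and untreated SCC7 cells. SCC7 is a mouse squamous cell carcinoma line, grown here in high-glucose medium with serum. The control group was 3 libraries of untreated SCC7 cells, and the irradiated group was 3 libraries of SCC7 cells after radiotherapy. The protocol text gives a dose of 9 Gy and is the same for all 6 libraries, so the groups rest on the other labels. Every library is labelled day 0, and the time between irradiation and harvest is not stated. Whether libraries of a group were grown as separate cultures is not stated either, and the p-values therefore describe only how these libraries vary. The members are the 7 mouse genes of both inhibitor families, found in the table by gene symbol. The CIP/KIP family has 3 members, Cdkn1a (p21), Cdkn1b (p27) and Cdkn1c (p57), and the INK4 family has 4, Cdkn2a, Cdkn2b, Cdkn2c (p18) and Cdkn2d (p19). A row was found for 5 of the 7 among the 17030 rows of the deposited table, and all 5 passed the filter on low values. Cdkn2a and Cdkn2b are not analysed here.

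CDKs drive the cell cycle when a cyclin is bound to them. INK4 proteins are small ankyrin-repeat proteins that bind CDK4 and CDK6 and keep D cyclins from activating them, so that the retinoblastoma protein stays unphosphorylated and E2F factors stay bound. CIP/KIP proteins bind cyclin-CDK complexes as a whole, above all those of CDK2 with cyclin E or A. Cdkn1a is the best known target of the tumour suppressor p53 after DNA damage and also binds the replication clamp PCNA. Cdkn1b is set largely by protein breakdown, through the ubiquitin ligase that contains SKP2 and CKS1, so its RNA is only part of its control. Cdkn1c is an imprinted gene expressed mainly in embryonic and differentiating tissue.

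RefSeq gives a promoter window from 250 bases before to 50 bases after each annotated gene start, in build GRCm38.p6. The windows below are those of the called members and the upstream one of Cdkn2c, which missed the threshold narrowly, because the comparison turns on these genes. In the first line the capitals mark the best match to the binding sequence of p53, which is 2 adjoining units of 10 bases. In the other 3 lines they mark GC boxes (GGGCGG, read on both strands).
Cdkn1a, upstream start, chr17:29090729-29091028, plus strand: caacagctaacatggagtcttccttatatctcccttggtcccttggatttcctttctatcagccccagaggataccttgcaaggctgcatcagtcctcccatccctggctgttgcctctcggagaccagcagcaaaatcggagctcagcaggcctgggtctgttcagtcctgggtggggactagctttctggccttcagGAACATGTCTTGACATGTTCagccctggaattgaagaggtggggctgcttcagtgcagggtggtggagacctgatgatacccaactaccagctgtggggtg
Cdkn1a, downstream start, chr17:29093519-29093818, plus strand: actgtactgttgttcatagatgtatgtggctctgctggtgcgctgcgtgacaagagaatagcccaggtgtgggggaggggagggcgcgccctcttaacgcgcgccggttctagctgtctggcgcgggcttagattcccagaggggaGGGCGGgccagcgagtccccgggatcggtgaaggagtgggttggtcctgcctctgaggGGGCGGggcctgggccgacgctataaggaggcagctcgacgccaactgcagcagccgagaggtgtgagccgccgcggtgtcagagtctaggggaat
Cdkn2c, upstream start, chr4:109666707-109667006, minus strand: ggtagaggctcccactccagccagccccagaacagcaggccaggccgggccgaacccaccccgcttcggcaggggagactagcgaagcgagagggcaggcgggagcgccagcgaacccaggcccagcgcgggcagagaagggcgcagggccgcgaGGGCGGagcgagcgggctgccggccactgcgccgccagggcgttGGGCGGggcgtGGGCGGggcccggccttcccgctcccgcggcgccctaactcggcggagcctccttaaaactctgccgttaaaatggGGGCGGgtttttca
Cdkn2d, chr9:21291160-21291459, minus strand: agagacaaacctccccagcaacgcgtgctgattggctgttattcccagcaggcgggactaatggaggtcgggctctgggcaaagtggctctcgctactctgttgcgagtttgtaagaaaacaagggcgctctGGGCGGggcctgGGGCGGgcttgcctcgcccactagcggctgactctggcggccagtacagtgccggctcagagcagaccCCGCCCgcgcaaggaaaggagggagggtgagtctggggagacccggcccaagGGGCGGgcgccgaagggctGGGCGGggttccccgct
The upstream Cdkn1a window holds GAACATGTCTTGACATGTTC at 29090928 to 29090947 on chromosome 17, from 51 to 32 bases before the start. Its first unit, GAACATGTCT, has 0 mismatches to the p53 consensus and its second unit, TGACATGTTC, has 1, at position 1 of the unit. Of all 32851 RefSeq windows of this length, 29 (0.0883%) hold 20 bases with at most 1 mismatch. The best match in the other printed windows had 4 to 6 mismatches, 4 in Cdkn2d, 5 at the downstream Cdkn1a start and 6 at the upstream Cdkn2c start. GC boxes numbered 2 at the downstream Cdkn1a start, 4 at the upstream Cdkn2c start and 5 in Cdkn2d, and 35.7% of all windows hold at least 1. The second Cdkn2c window, chr4:109665323-109665622, is not printed and holds 0 GC boxes and a best p53 match with 4 mismatches. The Cdkn1b window, also not printed, has a best p53 match with 3 mismatches. How many of all windows match as closely as these was counted only for at most 1 mismatch. A match describes letters only, and the deposited table holds RNA levels and no measure of binding.

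Levels are FPKM, that is fragments scaled by transcript length and by the total of the library. FPKM values summed to 693961 to 982553 per control library and to 652691 to 663489 per irradiated library, and the number of reads behind them is unknown. The controls were less alike than the irradiated libraries. Pearson correlations across the 11103 genes tested were 0.928 to 0.989 between controls and 0.994 to 0.995 between irradiated libraries, and control 3 correlated with the irradiated libraries at 0.960 to 0.966 against 0.911 to 0.947 for controls 1 and 2. Of 10 squamous epithelial markers, 7 had a mean under 1 FPKM, among them Krt5, Krt14, Trp63, Epcam and Cdh1, and most of the summed marker level, 702 to 1895 FPKM in controls and 487 to 499 in irradiated libraries, was Krt8 and Krt18, of which Krt18 was called lower (limma adjusted p = 0.0261, where called means below 0.05). The summed level of 7 mesenchymal markers was 3347 to 5608 FPKM in controls and 3043 to 3236 in irradiated libraries, most of it Vim. Of these 7 only Col1a1 was called, and it was higher (2.43-fold, limma adjusted p = 0.00474). The log2 fold change was positive for 4 of the 7 and negative for 3, among them Vim (-0.67, limma adjusted p = 0.166). The list median was 0.049. Leukocyte markers summed to 2.92 to 5.06 FPKM in controls and 7.44 to 9.30 in irradiated libraries over 7 genes, most of it Cd68 and Lyz2. Of these Lyz2 was called higher, from 0.30 to 0.78 FPKM in controls to 2.37 to 3.53 in irradiated libraries (limma adjusted p = 0.00745), and Ptprc was listed at 0 in all controls and at up to 0.03 in the irradiated libraries. Endothelial markers, 4 genes, summed to 0.36 to 0.63 and 0.25 to 0.51 FPKM. The call of Krt18 was lost without control 1 or 2 or any irradiated library (limma adjusted p = 0.0561 to 0.173), that of Col1a1 without irradiated library 1 or 2 (0.0562 and 0.0619) and that of Lyz2 without control 1 (0.0591), and without an irradiated library Lyz2 fell under the filter. The part of these markers in the results for the CDK inhibitors was not tested.

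In the irradiated cells Cdkn1a rose 1.86-fold and Cdkn2d fell to 0.670 of the control mean, and both passed the test. Cdkn2c stood at 0.569 of the control mean and missed the threshold narrowly. Cdkn1b and Cdkn1c differed among the controls by more than between the groups. In bulk RNA, fewer cells with a transcript and less of it per cell cannot be told apart. In limma, fitted on log2(FPKM + 1) over all 11103 genes with Benjamini-Hochberg adjustment, 12.0% of genes were called at an adjusted p below 0.05, 9.24% higher and 2.77% lower in irradiated cells. Of the 5 CDK inhibitors tested, 1 was called higher and 1 lower. The groups did not overlap for 3 of the 5, against 45.4% of all genes tested.

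Cdkn1a, the p53-induced inhibitor of CDK2 complexes (NCBI gene 12575, chromosome 17, 29090979 to 29100722), had the highest level of the 5 genes in every library. Its level was 120.72, 121.44 and 97.46 FPKM in controls 1 to 3 and 207.52, 218.11 and 206.49 FPKM in irradiated libraries 1 to 3. The lowest irradiated library lay well above the highest control, and control 3 was the lowest of all. The group means were 113 ± 13.6 and 211 ± 6.43 FPKM (SD, n = 3 each). The log2 fold change was 0.90 (SE 0.14, limma adjusted p = 0.0145), and against controls 1, 2 and 3 singly the difference was 0.80, 0.79 and 1.10. An exact permutation test, two-sided, gave p = 0.1, the smallest that 3 libraries against 3 allow. By its mean over the 6 libraries Cdkn1a stood above 94.2% of the genes tested. Trimmed-mean scaling, in which each library is rescaled by a trimmed mean of its log ratios, ended the call (log2 fold change 0.66, limma adjusted p = 0.0599). So did omission of control 1 (0.0665) or of an irradiated library (0.139, 0.154 and 0.119 for libraries 1 to 3), while the log2 fold change without any 1 library stayed between 0.79 and 0.95.

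**Figure D1:**
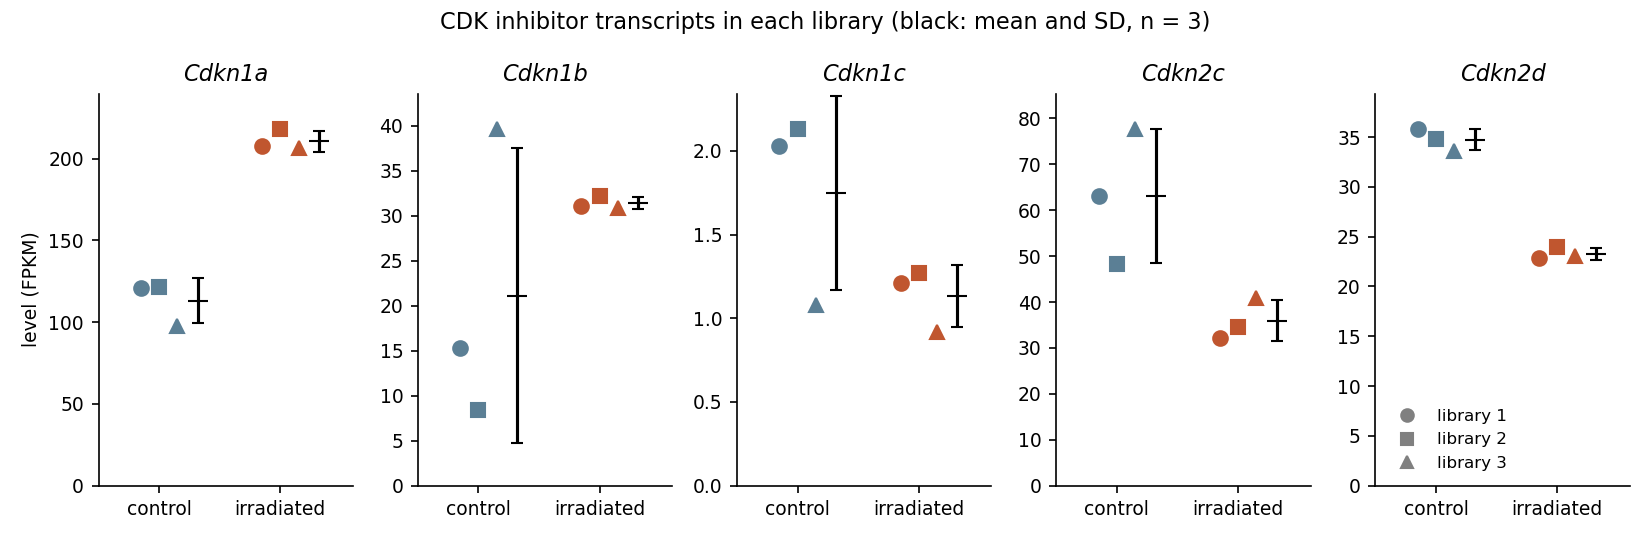
Level in FPKM (linear axis from 0) of the 5 CDK inhibitors in the control and irradiated libraries, with each library as a point (circle, square and triangle for libraries 1, 2 and 3) and the mean and SD in black. For Cdkn1a, Cdkn2c and Cdkn2d the groups do not overlap, and for Cdkn1b control 3 (39.6 FPKM) lies above the irradiated libraries and controls 1 and 2 (15.29 and 8.46 FPKM) below them.

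Cdkn1b, which restrains CDK2 in resting cells (NCBI gene 12576, chromosome 6, 134920401 to 134925525), measured 15.29, 8.46 and 39.6 FPKM in controls 1 to 3. In irradiated libraries 1 to 3 it measured 31.07, 32.19 and 30.89 FPKM. The irradiated libraries were nearly identical and lay between controls 1 and 2 below and control 3 above. The log2 fold change was 0.81, with an interval that includes 0 (95% interval -0.34 to 1.97, limma adjusted p = 0.243). It was 0.99 and 1.78 against controls 1 and 2 and -0.33 against control 3. Without control 3 the gene was called higher (log2 fold change 1.38, limma adjusted p = 0.000484), where 69.1% of all genes were called. With control 3 as the only control the log2 fold change was -0.33. The direction for Cdkn1b differed with the control library used.

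Cdkn1c, the imprinted member (NCBI gene 12577, chromosome 7, 143458339 to 143461059), was near the lower limit of the levels tested, with 4.27% of tested genes below it. It measured 2.03, 2.13 and 1.08 FPKM in controls 1 to 3 and 1.21, 1.27 and 0.92 FPKM in irradiated libraries 1 to 3. Controls 1 and 2 were high, and control 3 lay among the irradiated libraries. The log2 fold change was -0.34 (95% interval -0.80 to 0.11, limma adjusted p = 0.219), a scale that understates change at so low a level. Without control 3 it was called lower (-0.53, limma adjusted p = 0.00446), where 69.1% of all genes were called. Against control 3 alone the value was 0.033.

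Cdkn2c, the INK4 protein p18 that binds CDK4 and CDK6 (NCBI gene 12580, chromosome 4, 109660876 to 109666756), measured 63.17, 48.34 and 77.66 FPKM in controls 1 to 3. In irradiated libraries 1 to 3 it measured 32.23, 34.64 and 40.86 FPKM. Every irradiated library was below every control, the nearest being control 2 and irradiated library 3. The means were 63.1 ± 14.7 and 35.9 ± 4.45 FPKM (SD, n = 3 each), and the log2 fold change was -0.78 (SE 0.20, limma adjusted p = 0.0506). Against controls 1, 2 and 3 singly the difference was -0.80, -0.43 and -1.10, so control 3 stood highest here, whereas it stood lowest for Cdkn1a. The gene was called lower in 5 of 15 alternatives. These were trimmed-mean scaling (-1.01, limma adjusted p = 0.0201), limma without its trend and robust options (0.0483), omission of control 2 (0.0334) or control 3 (0.00569), and control 3 as the only control (-1.10). Without control 3, however, 69.1% of all genes were called. When 1 library was left out, the limma adjusted p ran from 0.00569 to 0.217.

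Cdkn2d, the INK4 protein p19 (NCBI gene 12581, chromosome 9, 21288459 to 21291421), had the least spread of the 5 genes among the controls on the log2 scale. It measured 35.79, 34.81 and 33.64 FPKM in controls 1 to 3 and 22.85, 23.97 and 23.04 FPKM in irradiated libraries 1 to 3. The groups were far apart relative to their spread, with means of 34.7 ± 1.08 and 23.3 ± 0.599 FPKM (SD, n = 3 each). The log2 fold change was -0.56 (SE 0.11, limma adjusted p = 0.0291), and -0.60, -0.56 and -0.51 against controls 1, 2 and 3 singly. Control 3, which stood apart from the other controls for Cdkn1b and Cdkn1c, lay close to them for Cdkn2d. The call was lost without control 1 (limma adjusted p = 0.130), control 2 (0.0501) or irradiated library 1, 2 or 3 (0.195, 0.191 and 0.164), at log2 fold changes of -0.58 to -0.54 when 1 library was left out.

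FPKM is a level per length, so the levels of the genes can be set side by side. By mean level over the 6 libraries the order was Cdkn1a (162 FPKM), Cdkn2c (49.5), Cdkn2d (29.0), Cdkn1b (26.3) and Cdkn1c (1.44). Cdkn2d and Cdkn1b were neighbours in that order and changed places between libraries, with Cdkn1b the lower of the pair in controls 1 and 2 and the higher in control 3 and in all irradiated libraries. Cdkn2c and Cdkn1b were close in the irradiated libraries (35.9 ± 4.45 and 31.4 ± 0.704 FPKM, SD, n = 3) and further apart in the controls.

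The summed level of the 5 genes was 237, 215.18 and 249.44 FPKM in controls 1 to 3 and 294.88, 310.18 and 302.2 FPKM in irradiated libraries 1 to 3. The CIP/KIP sum was nearly the same in the 3 controls, at 138.04, 132.03 and 138.14 FPKM, although control 3 reached it with less Cdkn1a and more Cdkn1b. It was 239.8, 251.57 and 238.3 FPKM in the irradiated libraries. The INK4 sum was 98.96, 83.15 and 111.3 FPKM in controls and 55.08, 58.61 and 63.9 FPKM in irradiated libraries. For each of these 3 sums the groups did not overlap (exact permutation p = 0.1, two-sided, the smallest possible). For the INK4 sum this had to follow, since Cdkn2c and Cdkn2d were each lower without overlap. CIP/KIP transcripts thus made up 58.3% of the summed level in controls and 80.4% in irradiated libraries, as means of the libraries. Cdkn1a alone held 48.8% ± 8.87 in controls and 69.7% ± 1.16 in irradiated libraries, Cdkn2c 26.8% ± 4.34 and 11.9% ± 1.43, and Cdkn2d 14.9% ± 1.35 and 7.70% ± 0.0668 (SD, n = 3 each).

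**Figure D2:**
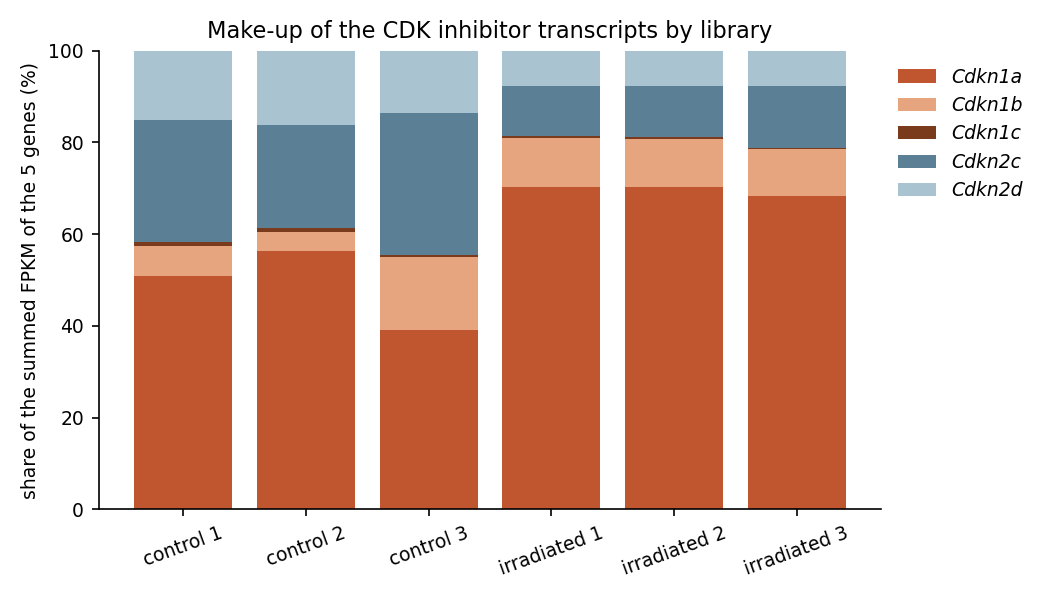
Share of each gene in the summed FPKM of the 5 CDK inhibitors, in percent, with 1 bar per library (CIP/KIP genes in brown and orange, INK4 genes in blue). Cdkn1a takes 39.1% to 56.4% of each control bar and 68.3% to 70.4% of each irradiated bar.

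The ratio of 2 genes within a library does not depend on the scale of that library, whereas over all genes the median log2 fold change was 0.17 as deposited and -0.040 under trimmed-mean scaling. The ratio of Cdkn1a to Cdkn2c was 1.91, 2.51 and 1.25 in controls 1 to 3 and 6.44, 6.30 and 5.05 in irradiated libraries 1 to 3. The ratio of Cdkn1a to Cdkn2d was 3.37, 3.49 and 2.90 in controls and 9.08, 9.10 and 8.96 in irradiated libraries. Both ratios were higher in all irradiated libraries than in any control. On the log2(FPKM + 1) scale the difference between Cdkn1a and Cdkn2c was 0.85 ± 0.50 in controls and 2.53 ± 0.19 in irradiated libraries, and that between Cdkn1a and Cdkn2d was 1.67 ± 0.14 and 3.12 ± 0.013 (SD, n = 3 each). Cdkn1a relative to Cdkn1c moved the same way, from 5.39 ± 0.15 to 6.64 ± 0.10 on that scale. For these 3 pairs the exact permutation p was 0.1, two-sided, and 0.133 after Benjamini-Hochberg adjustment over the 4 pairs, where 0.1 is the smallest possible raw value. For Cdkn2c and Cdkn2d that value was fixed by the single-gene levels. Cdkn1a was higher, and both of them lower, in every irradiated library than in any control. Cdkn1a relative to Cdkn1b was 7.90, 14.4 and 2.46 in controls and 6.68, 6.78 and 6.68 in irradiated libraries, which lay inside the range of the controls (exact permutation p = 1).

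**Figure D3:**
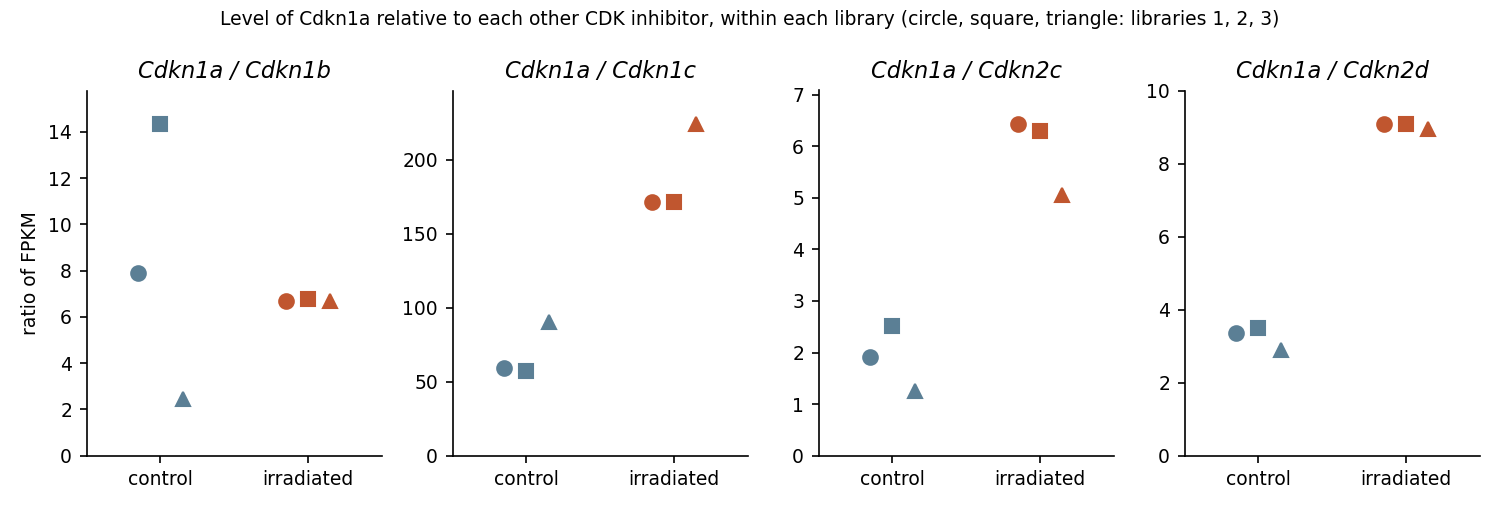
Ratio of the FPKM of Cdkn1a to that of each other CDK inhibitor within each library (linear axis from 0, circle, square and triangle for libraries 1, 2 and 3). Against Cdkn1c, Cdkn2c and Cdkn2d the irradiated libraries lie above all controls, and against Cdkn1b the irradiated libraries (6.68 to 6.78) lie between control 3 and controls 1 and 2.

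**Figure D4:**
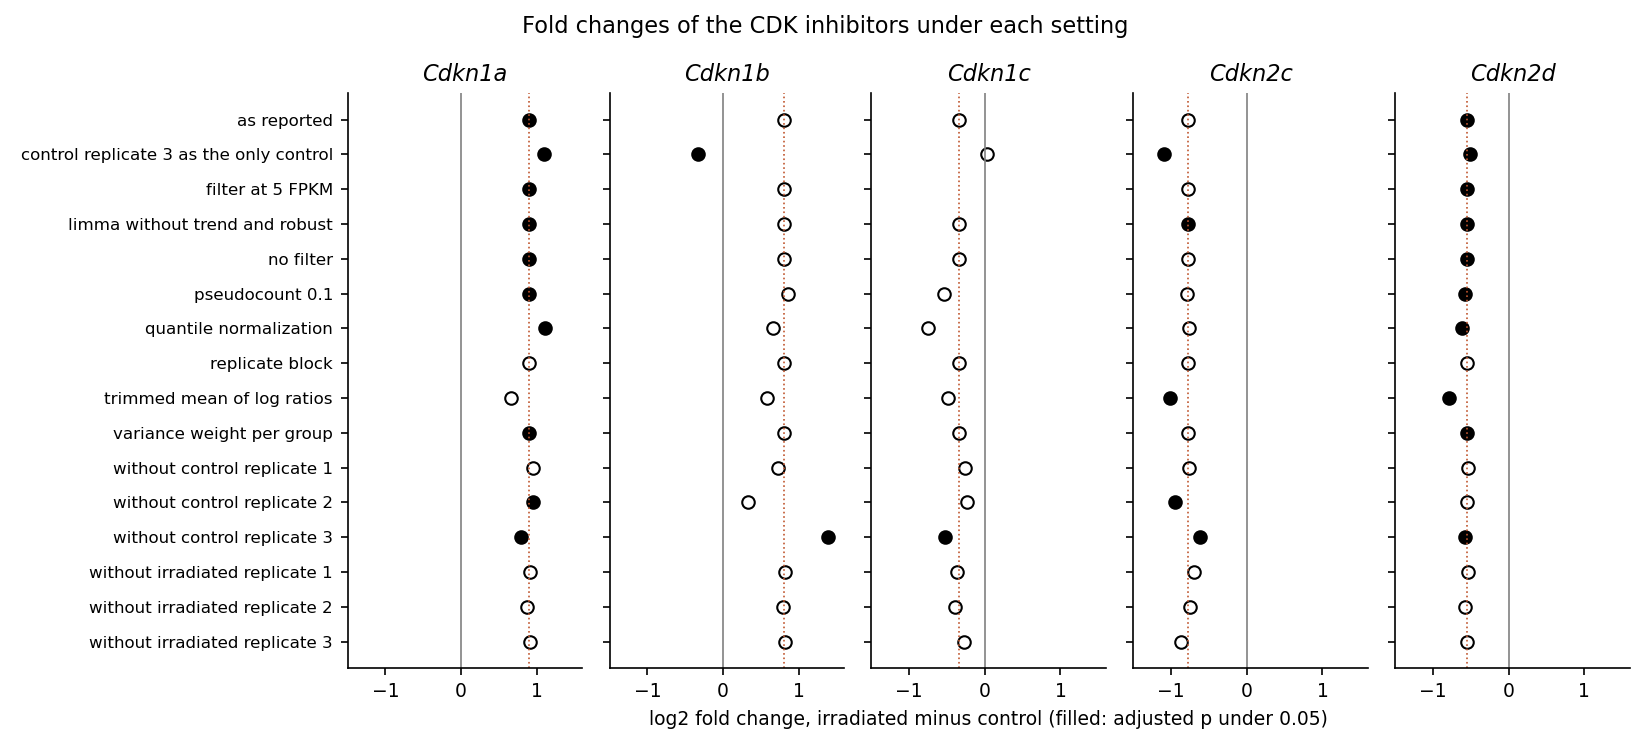
Log2 fold change (irradiated minus control, horizontal axis) of each CDK inhibitor as reported and under the alternative settings named on the vertical axis, with filled points where the limma adjusted p was below 0.05 and a dotted line at the reported value. Cdkn1a stays between 0.66 and 1.11 and Cdkn2d between -0.79 and -0.51, while Cdkn1b runs from -0.33 to 1.38; Cdkn1c has no point for the filter at 5 FPKM.

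The proteins that CDK inhibitors act on were read from lists, beside 12.0% of all tested genes called and 38.3% with an unadjusted p below 0.05 in limma. Of the CDK4 and CDK6 kinases and D cyclins, which INK4 proteins bind, 0 of 5 were called by limma and 1 had an unadjusted p below 0.05. Cdk4 measured 435.72, 466.71 and 293.65 FPKM in controls and 258.39, 258.93 and 265.9 FPKM in irradiated libraries (log2 fold change -0.58, limma adjusted p = 0.0891). Controls 1 and 2 were high, and control 3 was only a little above the irradiated libraries. Cdk6 measured 9.42 to 11.46 FPKM in controls and 12.04 to 12.29 in irradiated libraries (0.23, 95% interval -0.08 to 0.53, limma adjusted p = 0.220). Of the 8 measured kinases and cyclins that CIP/KIP proteins bind, together with Pcna, 0 were called by limma and 2 had an unadjusted p below 0.05. Cdk1, the kinase of mitosis, measured 91.26, 96.07 and 47.06 FPKM in controls and 41.63 to 45.02 in irradiated libraries (-0.77, limma adjusted p = 0.0954). Ccne2, an E-type cyclin that activates CDK2, measured 5.51, 1.08 and 10.24 FPKM in controls and 12.3 to 16.36 in irradiated libraries (1.52, limma adjusted p = 0.106). The list medians were 0.027 and -0.11, beside 0.17 for all genes tested.

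Among the pocket proteins and E2F factors, which act below the CDKs, 1 of 13 was called, none of them lower, beside 12.0% of all genes tested. E2f3, an activating E2F, rose from 5.15 ± 0.618 to 8.50 ± 0.179 FPKM (SD, n = 3 each), by 0.63 on the log2 scale (SE 0.14, limma adjusted p = 0.0353). Its levels were 5.38, 4.45 and 5.62 FPKM in controls and 8.46, 8.35 and 8.70 FPKM in irradiated libraries, with no overlap. The list median was 0.40, and it was 0.17 under trimmed-mean scaling and 0.084 after quantile normalization.

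Of 13 tested genes of the ubiquitin ligases that degrade CIP/KIP proteins, Cks1b was the one called, beside 12.0% of all genes tested. Cks1b, the cofactor through which SKP2 recognises p27, measured 375.98, 316.18 and 285.08 FPKM in controls and 194.26, 187.32 and 205.96 FPKM in irradiated libraries. It fell by 0.72 on the log2 scale (SE 0.15, limma adjusted p = 0.0332). Skp2 itself had 10.61 to 18.34 FPKM in controls and 16.91 to 21.02 in irradiated libraries, which overlap (0.40, limma adjusted p = 0.195).

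Of 24 tested transcription factors known to act on these promoters, 2 were called, both higher, beside 12.0% of all genes tested called in either direction. Irf1, an interferon regulatory factor, measured 8.47, 6.52 and 21.53 FPKM in controls and 29.08 to 39.21 in irradiated libraries (log2 fold change 1.58, limma adjusted p = 0.0488). Trp53, which encodes p53, measured 160.19, 130.34 and 159.97 FPKM in controls and 161.83, 165.64 and 186.16 FPKM in irradiated libraries (0.19, 95% interval -0.15 to 0.54, limma adjusted p = 0.344), without overlap of the groups. In the route from ARF to p53, 2 of 6 genes were called, both higher, beside 9.24% of all genes tested called higher. Mdm2, the ubiquitin ligase of p53 and itself a p53 target, rose by 1.74 (SE 0.12, limma adjusted p = 0.000838), from 80.36 to 85.69 FPKM in controls to 264.62 to 290.96 in irradiated libraries. Huwe1, a ubiquitin ligase that ARF inhibits, rose by 0.72 (SE 0.15, limma adjusted p = 0.0313).

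Polycomb proteins and histone demethylases set the repression of the INK4 locus, and limma called 0 of 18 such genes, beside 12.0% of all genes tested. An unadjusted p below 0.05 was found for 6 of them, beside 38.3% of all genes tested. Kdm6b, a demethylase that removes the Polycomb mark, was nearest to the threshold, with 2.13, 1.98 and 5.65 FPKM in controls and 8.37, 9.76 and 7.43 FPKM in irradiated libraries (log2 fold change 1.26, limma adjusted p = 0.0506). Phc3, a Polycomb subunit, had 2.04 to 5.25 FPKM in controls and 5.87 to 6.73 in irradiated libraries (0.91, limma adjusted p = 0.0748). For both genes control 3 was the highest control. The list median was 0.40 with all controls and -0.071 against control 3 alone.

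Among 6 other genes named for CDK inhibition, 1 was called, and it was lower, beside 12.0% of all genes tested. That gene, Cdkn2aipnl, a relative of an ARF-binding protein, fell by 0.65 (SE 0.15, limma adjusted p = 0.0428). The log2 fold change was positive for 2 of the 6. Of 9 tested senescence-associated genes, 2 were called, both higher, beside 9.24% of all genes tested called higher. The log2 fold change was positive for 7 of the 9, with a list median of 0.34 beside 0.17 for all genes tested. Under trimmed-mean scaling these medians were 0.11 and -0.040. Glb1, which encodes the lysosomal beta-galactosidase stained in senescent cells, had 14.62 to 17.18 FPKM in controls and 22.48 to 24.16 in irradiated libraries (log2 fold change 0.50, SE 0.12, limma adjusted p = 0.0455). Lmnb1, a lamin whose loss marks senescence, measured 21.6 to 35.01 FPKM in controls and 34.04 to 42.62 in irradiated libraries (0.34, limma adjusted p = 0.259).

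Over all 9 lists, 9 of 101 tested genes (8.91%) were called, 7 higher and 2 lower, against 12.0% of all genes tested. Mdm2 kept its call when any 1 of the 6 libraries was left out. E2f3, Cks1b, Irf1, Huwe1, Cdkn2aipnl and Glb1 lost theirs without control 1, control 2 or any irradiated library, and of the 9 called genes 3, 3 and 9 were still called when controls 1 to 3 were omitted in turn, and 2, 2 and 3 when irradiated libraries 1 to 3 were. Under trimmed-mean scaling E2f3, Huwe1, Irf1 and Glb1 lost their calls (limma adjusted p = 0.0579, 0.0557, 0.0557 and 0.151). After quantile normalization E2f3, Cks1b, Cdkn2aipnl and Glb1 lost theirs (limma adjusted p = 0.157, 0.0548, 0.0521 and 0.0856), and the log2 fold change of E2f3 was 0.26.

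**Figure D5:**
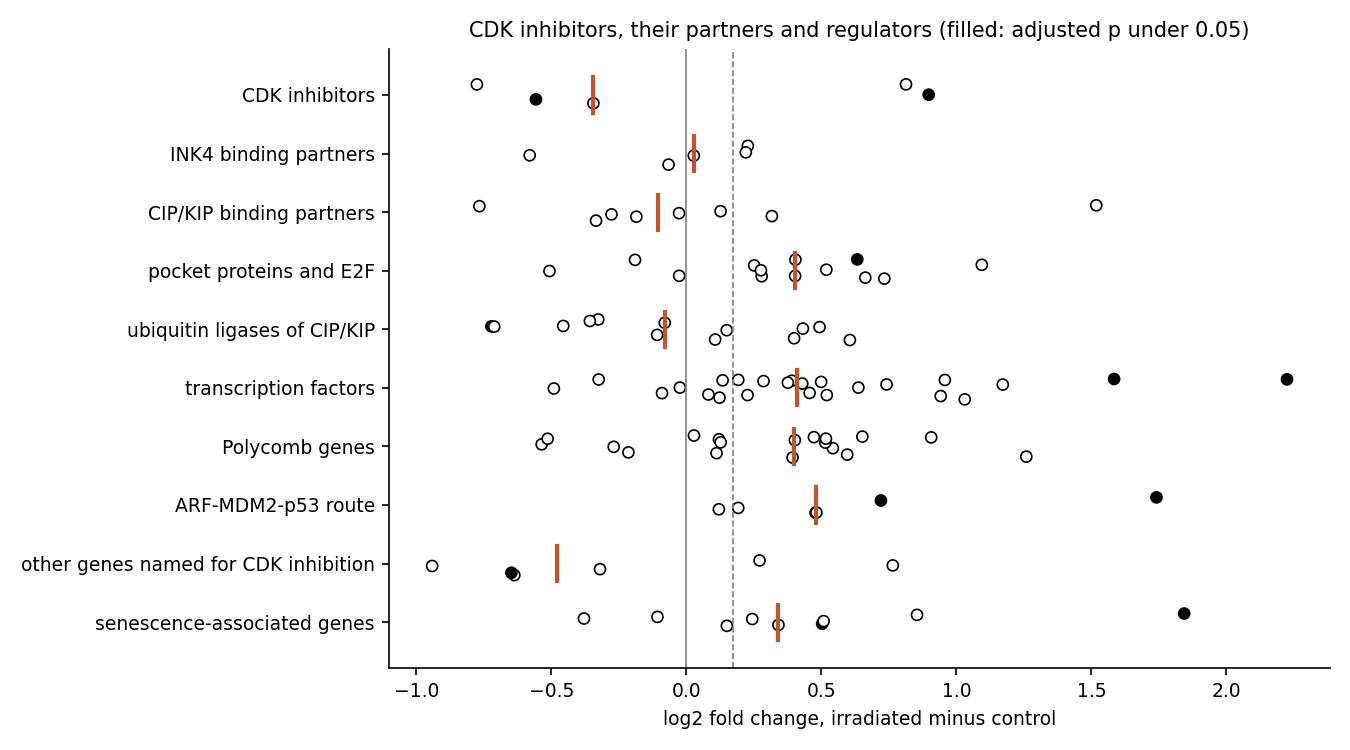
Log2 fold change (irradiated minus control, horizontal axis) of each tested gene of the CDK inhibitors and of the 9 lists of partners and regulators, with filled points at a limma adjusted p below 0.05, an orange bar at each list's median and a dashed line at the median of all genes tested (0.17). Few points are filled, 2 of them among the CDK inhibitors and 9 in the lists.

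For each member the genes nearest in pattern were taken as the 3 of 8485 other genes whose centred log2 profile over the 6 libraries had the smallest root mean square distance from it. Since 2 groups of 3 libraries shape all of these profiles, the distances describe these libraries only. Nearest to Cdkn1a were Spsb1, an adaptor of a ubiquitin ligase (distance 0.049), Procr, the protein C receptor (0.065), and Cx3cl1, the chemokine fractalkine (0.080). Procr measured 50.75, 46.88 and 40.76 FPKM in controls and 85.8, 88.8 and 76.91 FPKM in irradiated libraries, with control 3 lowest as for Cdkn1a. Near to Cdkn1b were Rnf11, a RING finger protein, and Dusp1, a phosphatase of MAP kinases (0.076 and 0.085). Rnf11 measured 45.98, 25.72 and 105.03 FPKM in controls and 95.36 to 98.81 in irradiated libraries. Nearest to Cdkn2c were Fads2, a fatty acid desaturase, Stard4, a sterol carrier, and Aacs, which makes acetoacetyl-CoA (0.081, 0.11 and 0.12). Fads2 measured 58.15, 43.13 and 61.31 FPKM in controls and 25.95, 27.88 and 33.37 FPKM in irradiated libraries. Nearest to Cdkn2d were Tmem119, Gtf2a1, a subunit of the general factor TFIIA, and Spcs1, a subunit of signal peptidase (0.032, 0.035 and 0.048), and Tmem119 measured 14.17 to 14.58 FPKM in controls and 9.66 to 10.11 in irradiated libraries. Nearest to Cdkn1c were Ndufb4, Ap5s1 and Snapc2 (0.037, 0.040 and 0.042).

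Genes within 100 kb of the members in the RefSeq annotation were also read. Of 16 such genes that were tested, 1 was called, beside 12.0% of all genes tested. Srsf3, a splicing factor 47.6 kb from Cdkn1a, had 122.59, 114.51 and 96.51 FPKM in controls and 67.63, 59.45 and 74.62 FPKM in irradiated libraries, a fall of 0.72 on the log2 scale (SE 0.15, limma adjusted p = 0.0347), in the direction opposite to Cdkn1a. Omission of control 1 or 2 ended that call (limma adjusted p = 0.143 and 0.0726), as did omission of irradiated library 1, 2 or 3 (0.192, 0.202 and 0.146). Rab44, 13.4 kb on the other side of Cdkn1a, had 2.43 to 4.3 FPKM in controls and 4.25 to 4.87 in irradiated libraries (0.37, limma adjusted p = 0.181). Crebl2, 39.8 kb from Cdkn1b, had 0.91, 0.91 and 4.71 FPKM in controls and 3.5 to 4.38 in irradiated libraries. Control 3 was its highest library, as for Cdkn1b itself. For the other tested neighbours of Cdkn1b, control 3 was instead the lowest control. Gpr19, at 22.2 kb, had 3.29, 4.88 and 2.98 FPKM in controls 1 to 3, and Ddx47, at 86.1 kb, had 69.08, 73.46 and 55.25 FPKM. Faf1, the tested neighbour of Cdkn2c at 9.87 kb, had 20.17 to 23.13 FPKM in controls and 15.9 to 17.03 in irradiated libraries, without overlap (log2 fold change -0.36, limma adjusted p = 0.0822). Kri1, which lies 0.490 kb from Cdkn2d, had 17.22 to 22.98 FPKM in controls and 16.93 to 19.75 in irradiated libraries (-0.14, limma adjusted p = 0.507). Slc44a2, 29.3 kb from Cdkn2d, had 7.71, 7.65 and 14.74 FPKM in controls and 15.99 to 21.12 in irradiated libraries, also without overlap (0.91, limma adjusted p = 0.0635). Phlda2, an imprinted neighbour of Cdkn1c, had 6.78, 6.08 and 1.74 FPKM in controls and 4.26 to 5.78 in irradiated libraries, with control 3 lowest.

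Cdkn2a lies at 89274473 to 89294619 and Cdkn2b at 89306289 to 89311032 on chromosome 4. Mtap, an enzyme of methionine salvage encoded 93.4 kb from Cdkn2a at 89137370 to 89181090, is the row of the table that lies within 100 kb of either gene. It was listed at 0 in all controls and in irradiated libraries 1 and 2, and at 0.03 FPKM in irradiated library 3. The table lists 16883 of the 21900 protein-coding genes of the RefSeq annotation (77.1%).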

How the data were processed

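RNA was sequenced from 3 control and 3 irradiated SCC7 libraries after removal of ribosomal RNA, per the labels' protocols. The authors deposited FPKM values per gene, per the file headers. The submitters' processing notes name HISAT and build GRCm38.p6; for the counting tool, strand setting and filters the sources used here give nothing. FPKM keeps no read numbers, so depth and counting error are unknown, and a change in a highly expressed gene moves the scale of the rest.

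Gene identifiers were matched to RefSeq (GRCm38.p6), which held 16976 of 17030 (99.7%). The 11103 genes that reached 1 FPKM in 3 or more libraries entered a limma fit (version 3.58.1, R 4.3.3) of log2(FPKM + 1) on 2 groups, with its trend and robust settings, followed by Benjamini-Hochberg adjustment. The members and lists were chosen with earlier results of these data known. Named genes were all members, up to 4 called genes per list by smallest p (or the 2 smallest where none was called), the 3 genes nearest in pattern (mean 5 FPKM or more), and further list members and neighbours chosen after their values were seen. The fit was tested on simulated data with the same spread in both groups. It called 44% of 100 genes changed 2-fold and 91% of 100 changed 4-fold, and 7 unchanged genes. The measured libraries differ from that setting, with a median SD on the log2 scale of 0.30 in controls and 0.08 in irradiated libraries. The simulated figures therefore need not hold for them. Alternatives were other scalings, filters, pseudocounts, variance models, control sets and the omission of each library. Results for some genes are not reported here. All value columns were used.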

Additional observations from a re-analysis of the deposited data

How the results depend on the processing

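The direction of Cdkn1a, Cdkn2c and Cdkn2d was kept under both scalings, the other pseudocount, control 3 alone and the omission of each library, with log2 fold changes of 0.66 to 1.11, -1.10 to -0.62 and -0.79 to -0.51; the filters, variance settings and block leave these values as they are by construction. Against control 3 alone, Cdkn1b (-0.33), Cdkn1c (0.033), Dusp1 (-0.54), Ndufb4 (0.066), Rnf11 (-0.12) and Snapc2 (0.051) reversed, Cdkn2c was called (-1.10), and 4093 genes overall and 38 in the lists were called, beside 1334 and 9 as reported. That fit takes its spread from the irradiated libraries, whose median SD on the log2 scale was 0.08 against 0.30 in the controls, so the lone control is assumed to vary as they do. After quantile normalization Cdk6 (-0.030) and Ndufb4 (0.018) reversed, and Cdkn1a relative to Cdkn1c and Cdkn2d measured 1.87 and 1.73, beside 1.24 and 1.45. Trimmed-mean scaling ended the call of Cdkn1a (0.66) and made that of Cdkn2c (-1.01), as did limma without trend and robust options for Cdkn2c (-0.78). The split of calls was 663 higher and 564 lower after quantile normalization and 615 and 586 after trimmed-mean scaling, beside 1026 and 308. A filter at 5 FPKM gave 727 calls, and a variance weight per group gave 18 calls in the lists.

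Leaving out 1 library gave 56 to 7638 calls overall and 2 to 72 in the lists. It gave log2 fold changes of 0.79 to 0.95 for Cdkn1a, 0.33 to 1.38 for Cdkn1b, -0.53 to -0.24 for Cdkn1c, -0.95 to -0.62 for Cdkn2c and -0.58 to -0.54 for Cdkn2d. Cdkn1a relative to Cdkn1b ran from -0.59 (without control 3) to 0.62. The cause of these changes was not tested. With the sample number as a replicate block, 300 genes were called overall and 3 in the lists, and Cdkn1a (0.90, limma adjusted p = 0.0659) and Cdkn2d (-0.56, 0.0934) lost their calls. The numbers were not shown to pair the libraries: deviations of same-numbered libraries correlated at -0.11, 0.020 and -0.16, and no library correlated best with its own number. Depth is unknown, so it cannot be said how far counting error limits the low genes, of which Cdkn1c is the member concerned.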
